A study of Arabidopsis thaliana with 24 samples.

Results

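The light response of H3K9 acetylation (H3K9ac, a histone mark of active genes) was described in the pifq mutant of Arabidopsis, as the difference between seedlings grown in continuous white light (pifq WLc) and seedlings kept in darkness (pifq D). All peaks of the deposited table entered the comparison, 19435 entries of 17319 distinct intervals, which were assigned by the authors to 17672 genes. The series holds 24 samples, of which 18 are H3K9ac libraries and 6 are inputs, and pifq WLc and pifq D account for 3 libraries each. The table gives 1 pooled value per peak and group, so every difference is a description without an error between replicates and without a test.

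Both groups were 2-day-old Columbia-0 seedlings of a single pifq line (pif1 pif3 pif4 pif5, labelled as the pif1345 quadruple mutant), so all 4 of these PIF loci were mutated in both. The pifq WLc seedlings were grown under white light of 100 µE m-2 s-1 and the pifq D seedlings in darkness. Seeds of both were sown on medium without sucrose and stratified in the cold. The dark regime also included a short white light exposure and a far-red pulse, which the labels place before stratification and the methods after it, and whether the pifq WLc seeds received them too is not stated. A further pifq group, pifq R1h, received red light of 10 µE m-2 s-1 for 1 h after 47 h of darkness and is given beside the comparison. Wild-type seedlings (wt) of the same 3 light conditions are given only to show where pifq differs. Whole seedlings were sampled, so fewer cells of a type and less H3K9ac per cell cannot be told apart.

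The phytochrome interacting factors (PIFs) are basic helix-loop-helix transcription factors that bind G-box and PBE-box motifs and hold back photomorphogenesis in darkness. Light activates the phytochromes, which bind the PIFs and trigger their degradation, and dark-grown pifq seedlings therefore resemble light-grown seedlings in part. H3K9ac is placed by histone acetyltransferases and removed by deacetylases, and it lies mostly just downstream of the transcription start site (TSS) of genes in use. A difference between pifq WLc and pifq D is a light response in plants without these 4 factors, although the family members PIF7 and PIF8 and the photoreceptors are still encoded in them.

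A selection of 7 short intervals with large differences is printed whole, and they are shown because each lies entirely in coding sequence downstream of the TSS and not in a promoter. They were read 5′ to 3′ on the strand of the gene from the RefSeq TAIR10.1 genome, with both end positions included. A G-box (CACGTG), in capitals, was found in the AT2G36970 interval, and neither a G-box nor a PBE-box (CATGTG, on either strand) in the other 6. The first 6 had more H3K9ac in pifq WLc and the last had less.
MYB12 peak, chr2:19478895-19479000, plus strand: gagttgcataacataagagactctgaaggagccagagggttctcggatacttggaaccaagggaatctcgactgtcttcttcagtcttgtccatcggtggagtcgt
AT3G04210 peak, chr3:1107649-1107800, minus strand: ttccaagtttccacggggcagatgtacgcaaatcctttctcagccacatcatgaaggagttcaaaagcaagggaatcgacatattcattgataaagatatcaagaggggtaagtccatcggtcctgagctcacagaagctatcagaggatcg
AT2G36970 peak, chr2:15529199-15529396, plus strand: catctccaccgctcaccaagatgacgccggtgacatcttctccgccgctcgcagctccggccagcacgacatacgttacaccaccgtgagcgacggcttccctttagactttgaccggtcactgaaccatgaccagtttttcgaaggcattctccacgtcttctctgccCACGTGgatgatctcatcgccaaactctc
AT3G08870 peak, chr3:2701849-2702002, minus strand: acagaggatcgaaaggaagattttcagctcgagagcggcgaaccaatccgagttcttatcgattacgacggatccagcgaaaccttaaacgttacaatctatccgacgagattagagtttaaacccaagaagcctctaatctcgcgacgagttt
AT2G37730 peak, chr2:15822845-15822950, minus strand: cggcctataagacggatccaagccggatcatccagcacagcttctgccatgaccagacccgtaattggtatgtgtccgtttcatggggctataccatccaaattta
EXT3 peak, chr1:7453871-7453976, minus strand: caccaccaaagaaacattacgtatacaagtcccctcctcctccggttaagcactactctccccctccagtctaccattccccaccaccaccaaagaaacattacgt
CYP705A5 peak, chr5:19435096-19435297, plus strand: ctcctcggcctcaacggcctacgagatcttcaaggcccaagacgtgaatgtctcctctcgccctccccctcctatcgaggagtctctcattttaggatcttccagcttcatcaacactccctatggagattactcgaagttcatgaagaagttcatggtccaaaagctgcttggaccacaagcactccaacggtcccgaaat

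Promoters are shown for 6 of the genes described below, 3 with more and 3 with less H3K9ac in pifq WLc than in pifq D, because each holds a motif that PIFs are known to bind. Each is the 250 bases upstream of the annotated TSS in the same genome, on the strand of the gene, with G-boxes (CACGTG) and PBE-boxes (CATGTG, or CACATG on the other strand) in capitals. The G-boxes begin 118 bases upstream of the TSS in MYB12, 88 in LHCB2.4, 70 in IAA19, 113 in IAA20 and 20 in AT5G51790, and the PBE-boxes 223 bases upstream in SIGE and 177 in IAA19. Of these windows only that of SIGE overlaps the H3K9ac peak of its gene, by 139 bp. A match shows only that the letters are there. Motifs were also found in windows that are not printed, those of LNK3 (2 G-boxes and a PBE-box, log2 change 0.01), BOH2 (a G-box and a PBE-box, 0.07), PIF5 (a G-box, -0.06) and SPT (a G-box, -0.33). These genes were within the 1.5-fold limit, as was IAA19 among those shown.
MYB12 promoter, chr2:19476076-19476325, plus strand: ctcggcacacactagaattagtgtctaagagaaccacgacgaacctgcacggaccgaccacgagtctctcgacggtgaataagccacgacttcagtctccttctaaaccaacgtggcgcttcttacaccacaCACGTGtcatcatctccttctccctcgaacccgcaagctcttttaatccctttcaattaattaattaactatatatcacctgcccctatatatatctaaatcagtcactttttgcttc
SIGE promoter, chr5:8160344-8160593, minus strand: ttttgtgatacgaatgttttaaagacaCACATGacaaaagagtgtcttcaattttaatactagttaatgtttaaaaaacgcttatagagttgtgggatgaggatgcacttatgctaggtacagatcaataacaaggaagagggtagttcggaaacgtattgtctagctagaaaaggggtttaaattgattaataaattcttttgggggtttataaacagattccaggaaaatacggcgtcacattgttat
LHCB2.4 promoter, chr3:10255656-10255905, plus strand: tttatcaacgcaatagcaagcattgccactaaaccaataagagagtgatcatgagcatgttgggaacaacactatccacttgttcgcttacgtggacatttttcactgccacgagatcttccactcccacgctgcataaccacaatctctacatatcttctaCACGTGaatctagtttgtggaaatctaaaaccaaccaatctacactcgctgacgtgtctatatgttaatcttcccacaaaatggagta
IAA19 promoter, chr3:5263751-5264000, plus strand: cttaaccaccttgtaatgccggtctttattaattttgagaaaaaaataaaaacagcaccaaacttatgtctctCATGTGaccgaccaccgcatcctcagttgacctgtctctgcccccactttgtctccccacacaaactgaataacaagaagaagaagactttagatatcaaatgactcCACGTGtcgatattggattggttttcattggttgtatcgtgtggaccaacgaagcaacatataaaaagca
IAA20 promoter, chr2:19307464-19307713, plus strand: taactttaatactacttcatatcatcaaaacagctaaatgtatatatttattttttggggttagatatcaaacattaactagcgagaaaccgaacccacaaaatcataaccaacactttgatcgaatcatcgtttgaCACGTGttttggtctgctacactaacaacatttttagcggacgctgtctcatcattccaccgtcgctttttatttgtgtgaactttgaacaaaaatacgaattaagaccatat
AT5G51790 promoter, chr5:21039283-21039532, plus strand: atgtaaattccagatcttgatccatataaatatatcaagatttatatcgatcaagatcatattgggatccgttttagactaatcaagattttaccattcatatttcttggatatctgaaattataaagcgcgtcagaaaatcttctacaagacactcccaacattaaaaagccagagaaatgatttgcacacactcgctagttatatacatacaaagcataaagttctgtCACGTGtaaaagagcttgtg

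On the common scale of the deposited values, H3K9ac was much alike in pifq WLc and pifq D at most genes. Where it differed, it was mostly higher in the light. With each gene represented by its peak of highest mean signal, 548 of 17672 genes (3.1%) had at least 1.5 times as much signal in pifq WLc as in pifq D, and 175 genes (0.99%) were lower by as much. The genes beyond this limit were thus 75.8% higher, and 95.9% of all genes stayed within it. Under quantile normalization the split was 460 higher and 266 lower genes, or 63.4% higher, and without the 25% of peaks with the lowest mean signal it was 135 higher and 10 lower. At 2-fold the counts were 188 higher and 29 lower genes, and at 4-fold they were 23 and 0. The median log2 change was 0.01, with quartiles of -0.09 and 0.11 and extremes of -1.67 and 3.82. All folds are on the log2(signal + 0.0717) scale, which understates the change of low peaks, and signal means the authors' scaled read signal per bp of peak.

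The column totals of signal times peak length differed by 0.158% between pifq WLc and pifq D, and the median signals over all peaks were 0.723 and 0.711. Totals this close point to a common scaling of the groups, and a change shared by all peaks could then not show. The genes higher in pifq WLc had a median signal of 0.6 in pifq WLc and 0.269 in pifq D, with 0.428 in pifq R1h. The genes lower in pifq WLc had medians of 0.207 in pifq WLc and 0.414 in pifq D, with 0.327 in pifq R1h. In both sets the median after 1 h of red light lay between those of the other light conditions. Most of these genes stayed under the median of all values: 172 of the 548 higher genes reached the median of all values (0.717) in pifq WLc, and 10 of the 175 lower genes reached it in pifq D.

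The largest gains among genes that reached that median were led by MYB12, a MYB factor that activates flavonol synthesis. Its peak of 105 bp, all coding, on chromosome 2 had a signal of 1.1 in pifq WLc, against 0.0111 in pifq D, and 0.0107 in pifq R1h. The log2 change was 3.82, and pifq R1h and pifq D were both near 0 there. The pifq D value lies at the floor of that column, the lowest signal times peak length in it. The size of the change thus depends on the pseudocount, and the peak centre lies 2621.5 bp downstream of the TSS. AT3G04210, annotated as a TIR-NBS disease resistance protein, had 0.938 in pifq WLc, against 0.0230 in pifq D, and 0.288 in pifq R1h (log2 3.42). The uncharacterized gene AT3G52740 had 0.899 in pifq WLc, against 0.0497 in pifq D, over a peak of 901 bp (log2 3.00). In both of these genes pifq R1h lay between, at 0.351 for AT3G52740.

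AT2G36970, which encodes a UDP-glycosyltransferase family protein, had 0.891 in pifq WLc and 0.0869 in pifq D (log2 2.60). AT3G57020, of a calcium-dependent phosphotriesterase family, had 0.789 in pifq WLc and 0.0791 in pifq D over a longer peak of 1749 bp (log2 2.51). AT3G08870, a lectin protein kinase, had 0.896 in pifq WLc and 0.112 in pifq D (log2 2.4). The signal of these 3 genes in pifq R1h was 0.356, 0.470 and 0.397 in the same order, between the other pifq groups in each. AT2G37730, annotated as a glycosyltransferase, reached the highest level of this set with 1.19 in pifq WLc, against 0.190 in pifq D (log2 2.27). The RING protein gene AT3G11110 had 0.795 and 0.108 (log2 2.27) and the dirigent-like gene AT1G65870 had 0.855 and 0.167 (log2 1.96) in pifq WLc and pifq D. EXT3, an extensin of the cell wall, had 0.770 in pifq WLc, against 0.168 in pifq D (log2 1.81), and it is the exception among the 10 in that its wt signal was lower in the light. The EXT3 interval begins and ends with the same stretch of bases, and how reads were placed in it is not given in the sources used here.

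**Figure D1:**
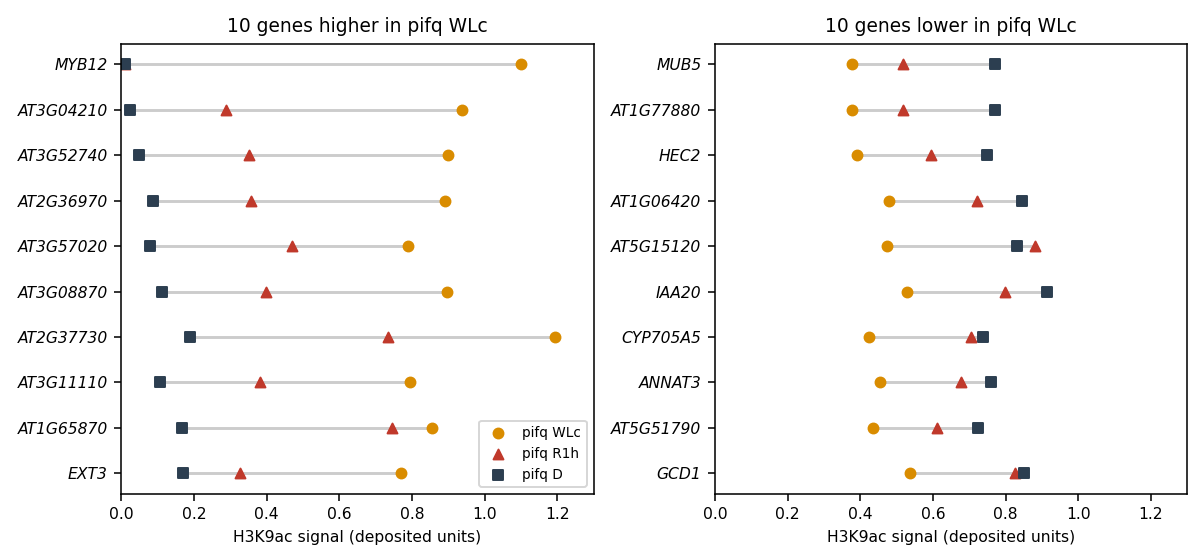
H3K9ac signal per bp of the 10 genes with the largest gain and the 10 with the largest loss in pifq WLc against pifq D, among genes with the median signal or more in 1 of these groups; each point is the pooled value of 1 group (pifq WLc, pifq R1h or pifq D), with no error. MYB12 lies at 1.1 in pifq WLc and 0.0111 in pifq D, while the losses are smaller, with MUB5 and AT1G77880 at 0.378 in pifq WLc and 0.770 in pifq D.

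The losses were smaller than the gains, and only 10 genes at least 1.5-fold lower reached the median of all values in pifq D, so all of them are named. MUB5 (a membrane-anchored ubiquitin-fold protein) and the kelch repeat gene AT1G77880 share an interval with 0.378 in pifq WLc, against 0.770 in pifq D, and 0.517 in pifq R1h (log2 -0.90). This interval covers exons of MUB5, whereas 76.6% of it lies outside the AT1G77880 gene, so the signal cannot be split between them. HEC2, a bHLH factor of gynoecium development, had 0.392 in pifq WLc, against 0.748 in pifq D, and 0.596 in pifq R1h (log2 -0.82). IAA20, an Aux/IAA repressor of auxin signalling, had 0.527 in pifq WLc, against 0.913 in pifq D, and 0.797 in pifq R1h (log2 -0.72). CYP705A5, a cytochrome P450 of triterpene metabolism in roots, had 0.423 in pifq WLc, against 0.738 in pifq D (log2 -0.71).

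The remaining losses were AT1G06420 (DNA ligase-like, log2 -0.74), AT5G15120 (annotated as a 2-aminoethanethiol dioxygenase, -0.73), the annexin gene ANNAT3 (-0.66), the bHLH gene AT5G51790 (-0.65) and GCD1 (annotated as a ribosomal protein L20, -0.60). Signals in pifq WLc lay between 0.436 for AT5G51790 and 0.538 for GCD1, and those in pifq D between 0.723 for AT5G51790 and 0.852 for GCD1. AT5G15120 was as high in pifq R1h (0.881) as in pifq D (0.831) and low only in pifq WLc (0.473). The same held for GCD1 with 0.825 in pifq R1h. With the pseudocount none of the 10 lower genes reached a 2-fold loss, while the plain values of the interval shared by MUB5 and AT1G77880 were just past it. With the peak nearest the TSS instead, GCD1 (log2 -0.31), AT1G77880 (-0.49) and CYP705A5 (-0.55) were within the 1.5-fold limit.

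Long peaks also changed, and 5 genes with peaks over 1000 bp illustrate it. After AT3G57020 came AT2G19650, of a cysteine/histidine-rich C1 domain family, with 0.778 in pifq WLc and 0.201 in pifq D (log2 1.64). SOUL-1, a heme-binding protein, had 0.931 in pifq WLc and 0.298 in pifq D (log2 1.44). ACL, annotated as an acetone-cyanohydrin lyase, had 0.743 and 0.268, and the carboxyesterase gene CXE13 had 0.915 and 0.341, in pifq WLc and pifq D (log2 1.26 each). CXE13 differed from the others in that its signal in pifq R1h, 0.980, was already as high as in pifq WLc.

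Genes named in the study as rapid light-repressed targets of the PIFs were within the 1.5-fold limit in pifq except for AT5G02580. PIL1, a PIF-related bHLH gene of shade avoidance, had 0.0635 in pifq WLc, against 0.128 in pifq D, and 0.0836 in pifq R1h (log2 -0.56). Its signal in wt was 0.168 in WLc and 0.929 in D, so PIL1 was low in all 3 pifq groups. XTR7, a xyloglucan endotransglucosylase that loosens cell walls, had 0.169 in pifq WLc and 0.222 in pifq D (log2 -0.29), and ATHB2, a homeodomain factor of shade avoidance, had 0.475 and 0.532 (log2 -0.14). CKX5, a cytokinin oxidase, had 0.393 in pifq WLc and 0.526 in pifq D (log2 -0.36), and IAA19, an Aux/IAA repressor, had 0.386 and 0.566 (log2 -0.48). AT5G02580 had 0.159 in pifq WLc, 0.230 in pifq R1h and 0.372 in pifq D (log2 -0.95). PIL1 passed it as well with a smaller pseudocount (log2 -0.93) and under quantile normalization (-0.80).

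Among the genes named in the study as light-induced, SIGE, AT1G60590 and LHCB2.4 were past the limit. SIGE, a sigma factor of the plastid RNA polymerase, had 0.361 in pifq WLc, against 0.146 in pifq D, and 0.385 in pifq R1h (log2 0.99), so the level after 1 h of red light was no lower than that in continuous light. AT1G60590, a pectin lyase-like gene, had 0.522 in pifq WLc, against 0.190 in pifq D, and 0.426 in pifq R1h (log2 1.18). LHCB2.4, a chlorophyll-binding antenna protein of photosystem II, had 0.702 in pifq WLc and 0.411 in pifq D (log2 0.68). SPA1, a partner of the COP1 ubiquitin ligase, had 0.698 in pifq WLc, 0.821 in pifq R1h and 0.443 in pifq D (log2 0.58), just inside the limit, and passed it with a smaller pseudocount (0.65). RPT2, a phototropism signalling protein, had 0.725 in pifq WLc and 0.538 in pifq D (log2 0.39). LNK3, a clock-associated gene, had 0.712 and 0.706 (log2 0.01) and BOH2, a beta-carotene hydroxylase, 0.526 and 0.497 (log2 0.07) in pifq WLc and pifq D, with the highest pifq values of both after 1 h of red light (1.01 and 0.746).

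The study's larger target lists, which it had drawn from PIF binding and from mRNA of dark-grown pifq, were also counted. Of 156 PIF-induced direct targets with a peak, 9 were at least 1.5-fold higher in pifq WLc and 11 lower by as much, with a median log2 change of -0.10. Of 104 PIF-repressed direct targets, 13 were higher and 0 lower (median 0.08). The rapidly light-responsive direct targets (LRP-DTGs), which the study selected further for a mRNA response to 1 h of red light in wt, had 6 of 34 light-repressed members lower and 0 higher (median -0.27) and 5 of 17 light-induced members higher and 0 lower (median 0.21). As shares, 7.05% of the PIF-induced targets were lower, beside 0.99% of all genes, and 5.77% of the PIF-induced targets, 12.5% of the PIF-repressed targets and 29.4% of the light-induced LRP-DTGs were higher, beside 3.1% of all genes. The light-repressed LRP-DTGs had a median signal of 0.362 in pifq WLc and 0.510 in pifq D, and the light-induced LRP-DTGs 0.725 and 0.538. All 17 light-induced LRP-DTGs had a log2 change above 0, including LNK3 at 0.01.

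The loci that are mutated in pifq kept a peak, and their light change was small. PIF3 had 0.170 in pifq WLc, 0.223 in pifq R1h and 0.214 in pifq D (log2 -0.24), against 0.865 in wt WLc and 1.02 in wt D, so both pifq groups were far below wt at this locus. PIF1 had 0.535 in pifq WLc and 0.557 in pifq D (log2 -0.05), PIF4 0.709 and 0.907 (log2 -0.33) and PIF5 0.641 and 0.671 (log2 -0.06). Which part of each gene is missing or disrupted was not analysed here, so these values are no check of the mutations. PIF7, a factor that is intact in pifq and acts in shade, had 0.797 in pifq WLc, 0.926 in pifq R1h and 0.620 in pifq D (log2 0.33). SPT had a log2 change of -0.33 and ALC of 0.03, and none of the 8 PIF family loci with a peak passed the limit. UNE10, also called PIF8 and not on that list, was chosen after its values were seen: it had 0.594 in pifq WLc, 0.476 in pifq R1h and 0.192 in pifq D (log2 1.34).

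Flavonoid synthesis was the pathway with the largest median change. Of its 10 genes with a peak, 6 were at least 1.5-fold higher and 0 lower, with a median log2 change of 0.70, beside 0.01 for all genes. Over all genes 3.1% were higher and 0.99% lower, and the counts of each list here and below are to be read against these shares. A count of 0 lower genes in a small list says little beside 0.99%. After MYB12 came F3H (flavanone 3-hydroxylase), with 0.650 in pifq WLc, against 0.119 in pifq D, and 0.658 in pifq R1h (log2 1.92). FLS1 (flavonol synthase) had 0.761 in pifq WLc, against 0.179 in pifq D, and 0.488 in pifq R1h (log2 1.73). 4CL3, a coumarate:CoA ligase of the same branch, had 0.799 and 0.271 (log2 1.35) in pifq WLc and pifq D. UGT78D2, a flavonoid glucosyltransferase, had a log2 change of 0.75 and CHIL, a chalcone isomerase-like protein, of 0.65, while GL3, a bHLH factor of anthocyanin and trichome control, was at -0.36. F3H reached its full level after 1 h of red light, whereas MYB12 was still near 0, as in pifq D. Of 13 genes of general phenylpropanoid metabolism, only CCR2 (cinnamoyl-CoA reductase) was past the limit (log2 1.22), and PAL1, the entry enzyme, was at 0.54.

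The genes of photosynthesis differed little in pifq, and where they did the signal was higher in the light. Of 21 light-harvesting antenna genes, 4 passed the limit upward (19.0%, beside 3.1% of all genes) and 0 downward. The median log2 change was 0.21 and 19 had a change above 0. LHCB1.2 had 0.784 in pifq WLc, against 0.371 in pifq D, and 0.489 in pifq R1h (log2 0.95), LHCA5 had a log2 change of 0.68 and LHCB1.1 of 0.67. The LHCB1 and LHCB2 genes are near-identical copies, and how reads were split between them is not given in the sources used here. Of 34 genes of the photosystems and electron transport, 0 passed the limit in either direction (median 0.08), with the largest change at PGR5, of cyclic electron flow (log2 0.41). Their median signal was 0.863 in pifq WLc and 0.775 in pifq D, so these genes were well acetylated in the dark as well.

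Early light-induced proteins stood out among the 8 photoprotection genes, of which 2 were higher and 0 lower. ELIP2 had 0.571 in pifq WLc, against 0.0779 in pifq D, and 0.219 in pifq R1h (log2 2.1), and ELIP1 had 0.276, against 0.05, and 0.166 in pifq R1h (log2 1.51). Both proteins bind pigments transiently in plastids under light. PSBS and NPQ1, of non-photochemical quenching, were within the limit (log2 0.26 each). Of 26 genes of the Calvin-Benson cycle and photorespiration, 4 were higher (15.4%, beside 3.1% of all genes) and 0 lower (median 0.22). These were the aldolase gene FBA1 (log2 0.99), AGT (0.71), GLDP1 (0.62) and SHM1 (0.60), of which the last 3 are enzymes of photorespiration. FBA1 had 0.601 in pifq WLc and 0.266 in pifq D.

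Of 29 genes of tetrapyrrole and chlorophyll synthesis, only CHLG, the chlorophyll synthase, passed the limit, with 0.914 in pifq WLc and 0.499 in pifq D (log2 0.79). Its neighbours in the pathway GUN5 (log2 0.27), PORC (0.30) and PORB (-0.16) did not. Of 23 genes of carotenoid and tocopherol synthesis, only VTE1 (tocopherol cyclase) did, with 0.715 in pifq WLc, 0.636 in pifq R1h and 0.253 in pifq D (log2 1.27). Among 19 genes of plastid development, SIGE and the GATA factor gene CGA1 (0.507 in pifq WLc and 0.230 in pifq D, log2 0.94) were higher. The chloroplast regulators GLK1 and GLK2 were at 0.08 and 0.11. Each of these 3 lists had 0 lower genes, and their medians lay between 0.04 and 0.13. The shares of higher genes in the tetrapyrrole list (3.45%) and the carotenoid list (4.35%) were near the 3.1% of all genes, and plastid development had 10.5%.

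Light signalling genes (37 with a peak, median log2 0.13) had 5 members past the limit upward (13.5%, beside 3.1% of all genes). They had 1 downward (2.70%, beside 0.99%), and 4 of the 5 higher genes encode B-box zinc finger proteins. BBX30 had 0.364 in pifq WLc, against 0.0398 in pifq D, and 0.315 in pifq R1h (log2 1.97). BBX31 had 0.342 in pifq WLc, against 0.0755 in pifq D, and 0.432 in pifq R1h (log2 1.49). In both genes most of the gain was present after 1 h of red light. BBX25 (0.902 in pifq WLc and 0.407 in pifq D, log2 1.02), BBX29 (log2 0.67) and HYH, the bZIP homologue of HY5 (0.79), followed, while HY5 itself was at 0.13. FHY1, which carries phytochrome A into the nucleus, had 0.407 in pifq WLc, against 0.681 in pifq D (log2 -0.65). None of 13 photoreceptor genes passed the limit, and PHYA was at -0.26 and PHYB at 0.12.

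The circadian clock had 7 of 27 genes higher (25.9%, beside 3.1% of all genes) and 1 lower (3.70%, beside 0.99%), with a median log2 change of 0.20. The morning genes LHY (0.684 in pifq WLc, 0.514 in pifq R1h and 0.261 in pifq D, log2 1.18) and CCA1 (0.592 in pifq WLc and 0.369 in pifq D, log2 0.59) were both higher in the light. PRR9, a repressor of both, had 0.222 in pifq WLc, against 0.0598 in pifq D (log2 1.16), but 0.765 in pifq R1h. It was thus far higher after 1 h of red light than in continuous light. CDF1 (log2 0.92), LNK2 (0.86), RVE1 (0.84) and RVE8 (0.75) were the other gains, and PRR3 was lower (0.280 in pifq WLc and 0.498 in pifq D, log2 -0.70). The evening gene GI had 0.235 in pifq WLc, 0.614 in pifq R1h and 0.357 in pifq D (log2 -0.48). The hour of the day at which each group was collected was not analysed here, and its part in the clock values was not tested.

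Of 41 auxin genes, 5 were lower (12.2%, beside 0.99% of all genes) and 1 was higher, the median log2 change was -0.14 and only 8 had a change above 0. IAA6 had 0.108 in pifq WLc, against 0.272 in pifq D (log2 -0.94), and the auxin importer gene LAX3 0.417, against 0.702 (log2 -0.66). SAUR19 had 0.218 in pifq WLc, 0.277 in pifq R1h and 0.468 in pifq D (log2 -0.90), and SAUR24 (-0.77) and SAUR22 (-0.60), close copies of it that promote cell expansion, were lower too. YUC5, an auxin biosynthesis enzyme, was the exception with 0.387 in pifq WLc and 0.192 in pifq D (log2 0.80). The 3 SAUR genes are alike in sequence, so reads may be shared among them.

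Of 15 shade and growth transcription factor genes, 2 were lower and 0 higher, and 14 had a change of 0 or less (median log2 -0.26). PRE5, an HLH protein that promotes elongation, had 0.0864 in pifq WLc, against 0.263 in pifq D (log2 -1.08), and BEE1, a brassinosteroid-induced bHLH, had 0.288, against 0.492 (log2 -0.65). Of 20 ethylene genes, ACS5, which makes the ethylene precursor, was lower, with 0.119 in pifq WLc, 0.187 in pifq R1h and 0.386 in pifq D (log2 -1.27), and 0 were higher. The gibberellin list of 23 genes had GASA1 higher (log2 0.76) and the gibberellin-inactivating GA2OX6 lower (-0.71), or 4.35% in each direction, beside 3.1% and 0.99% of all genes. Of 14 brassinosteroid genes only TCH4, a touch-induced xyloglucan endotransglucosylase that is also on the cell wall and touch lists, passed the limit (0.630 in pifq WLc and 0.176 in pifq D, log2 1.51). Of 16 cytokinin genes, the biosynthesis genes IPT3 (log2 1.17) and LOG1 (0.64) were higher (12.5%) and 0 were lower.

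The cell wall expansion list of 24 genes had TCH4 and XTH6 (log2 0.74) higher and 0 lower, and none of 10 cellulose synthesis genes passed the limit. Among 10 histone acetyltransferase genes only HAF2 was past it, with 0.475 in pifq WLc and 0.245 in pifq D (log2 0.79). The only HAF2 peak is centred 8413.5 bp downstream of the TSS, so it is not at the start of the gene. Among 15 histone deacetylase genes only HDA7 passed the limit, with 0.383 in pifq WLc and 0.191 in pifq D (log2 0.79). HDA19, HDA15 and HDA6 were at 0.33, 0.22 and 0.10. None of the 9 reference genes passed it, and they ranged from -0.15 (PP2AA3) to 0.09 (GAPC2). None of 19 genes of seed reserve mobilisation, 10 of iron homeostasis, 12 of nitrogen and sulphur assimilation or 14 of sucrose and starch did either, with medians between -0.04 and 0.16. Of 18 heat, touch and wounding genes, the touch genes TCH4, TCH3 (0.69) and TCH2 (0.65) were higher and 0 were lower.

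**Figure D2:**
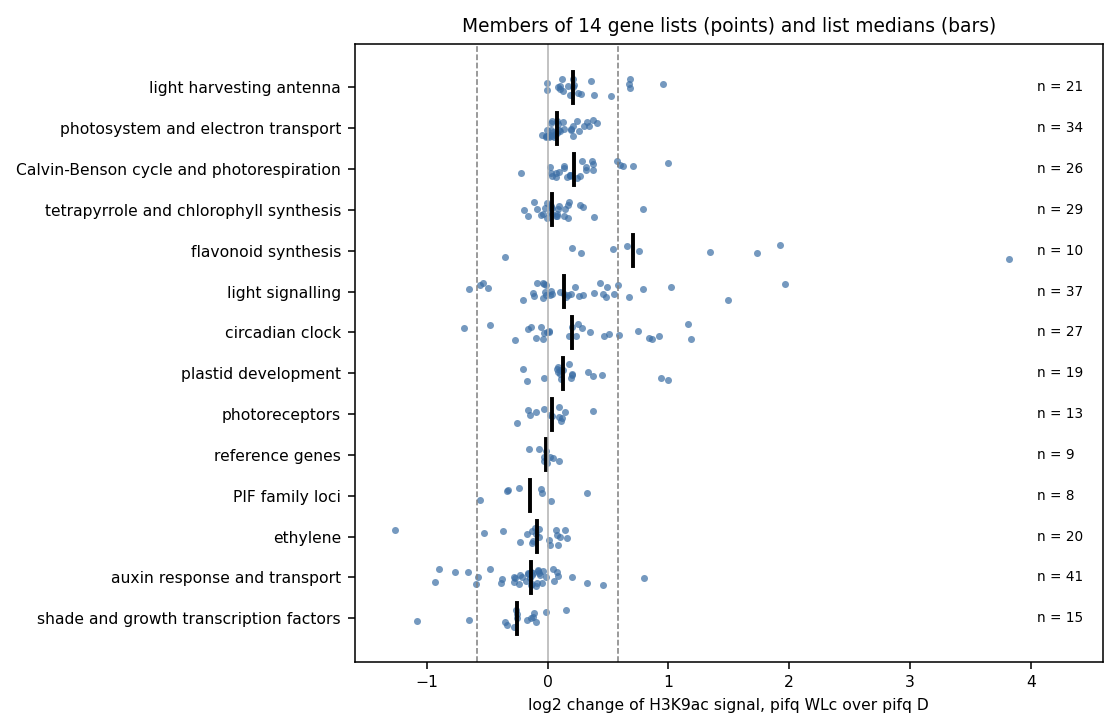
Log2 change of H3K9ac in pifq WLc over pifq D for the members of the gene lists; each point is a gene, bars mark list medians and dashed lines mark 1.5-fold in either direction. Flavonoid synthesis has the highest median (0.70), the shade and growth transcription factors lie mostly below 0 (median -0.26), and the reference genes stay within the limit.

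Markers of cell types that seedlings could hold in different shares were read as well, and many of them had no peak. Of 15 root markers 5 had a peak and 0 passed the limit (log2 -0.43 to 0.35), and TIP2;3 had 0.189 in pifq WLc and 0.203 in pifq D. Of 9 stomatal lineage markers 4 had a peak and 0 passed the limit, though 3 had a change above 0. TMM was at 1.2 in pifq WLc and 0.793 in pifq D (log2 0.56), and SPCH had a log2 change of 0.39. Of 7 vascular markers only SUC2 had a peak (log2 0.28). The seed marker OLEO3 had 0.147 in pifq WLc and 0.227 in pifq D (log2 -0.45), and 2 of the 14 seed markers had a peak. Of 7 shoot and leaf markers with a peak, GIF1 was higher (log2 0.70) and GRF5 lower (-0.67). This is 14.3% in each direction, beside 3.1% and 0.99% of all genes. None of 6 epidermis markers passed the limit, and of the cell cycle genes only MCM5 did (0.291 in pifq WLc and 0.0781 in pifq D, log2 1.27). The root markers had a median signal of 0.476 in pifq WLc and 0.462 in pifq D, and the stomatal markers 0.675 and 0.626. Their part in the differences above was not tested.

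Beside wild type, the light response of pifq involved fewer genes. In wt, 1301 genes (7.36%) were at least 1.5-fold higher in WLc than in D and 1078 (6.1%) at least 1.5-fold lower, so 75.8% of the pifq genes beyond the limit were higher, against 54.7% of the wt genes. The pifq and wt comparisons share no column of the table. Of the 548 genes higher in pifq, 310 were higher in wt too, which is 56.6% of the pifq list and 23.8% of the wt list. Of the 175 genes lower in pifq, 135 were lower in wt, which is 77.1% of the pifq list and 12.5% of the wt list. The genes higher in wt had a median log2 change of 0.27 in pifq, and those lower in wt one of -0.16. Across genes, which are no independent replicates, the log2 changes of both genotypes had a Pearson's r of 0.49 and a Spearman's rho of 0.33. Whether the genotypes differ at any gene was not tested, since each value is pooled.

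The lists show where pifq had the smaller change. The antenna genes had a median log2 change of 0.21 in pifq and 1.32 in wt, with 4 and 13 of 21 at least 1.5-fold higher, and the photosystem genes 0.08 and 0.73, with 0 and 22 of 34. In the antenna genes the WLc medians were 0.784 in pifq and 0.820 in wt, while the D medians were 0.652 in pifq and 0.284 in wt. Light-grown seedlings of both genotypes thus had similar levels and the dark levels differed. The Calvin-Benson list had medians of 0.22 in pifq and 0.77 in wt, and the light-repressed LRP-DTGs -0.27 and -0.98, with D medians of 0.510 in pifq and 0.856 in wt. Medians were nearer each other for the clock (0.20 in both genotypes), flavonoid synthesis (0.70 in pifq and 1.14 in wt) and light signalling (0.13 in pifq and 0.08 in wt).

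**Figure D3:**
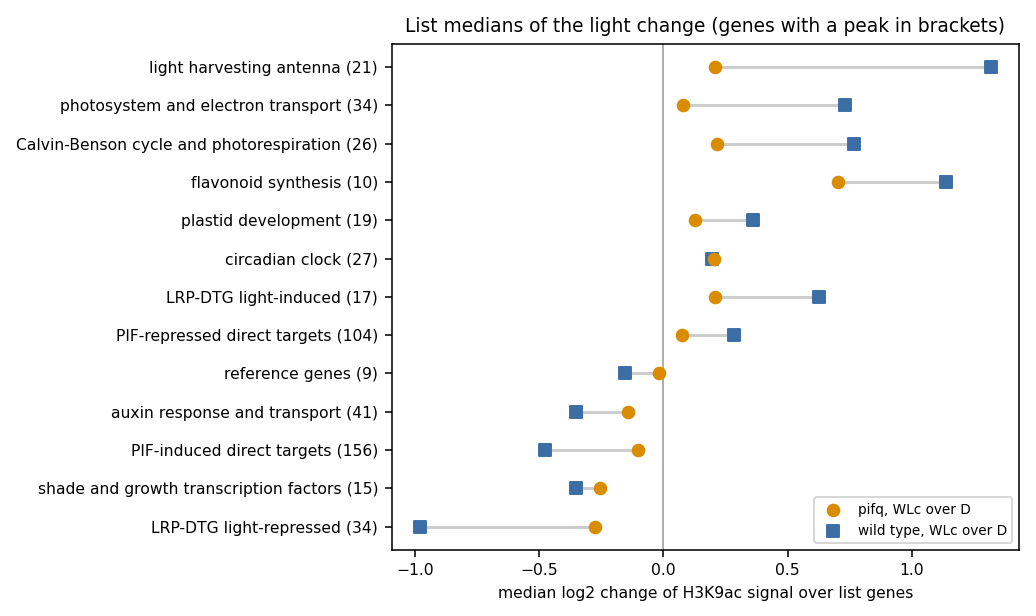
Median log2 change of H3K9ac in WLc over D for each gene list in pifq and in wt; each point is the median over the members of a list with a peak, and no error is shown because the values are pooled. The antenna genes lie at 0.21 in pifq and 1.32 in wt and the circadian clock at 0.20 in both.

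Single genes are given next from those with the largest difference between the log2 light changes of pifq and wt. Both dark values enter that difference, so unequal dark levels follow in part from the choice and add no support to the list medians. PIF7 had 0.797 in pifq WLc and 0.620 in pifq D, against 0.875 in wt WLc and 0.000689 in wt D. The log2 change was 0.33 in pifq and 3.71 in wt. That wt D value lies at the floor of its column, so the size of the wt change depends on the pseudocount. The floor was reached by 79 peaks in wt D and 23 in pifq D. AT5G14050, a WD40 repeat gene, had 0.772 and 0.659 in pifq WLc and pifq D, against 0.779 and 0.00969 in wt WLc and wt D. XTH6, a cell wall enzyme gene, had 0.581 and 0.320 in pifq WLc and pifq D, against 0.856 and 0.00668 in wt WLc and wt D. Its wt D value is at the floor too. In the other direction, OLEO3 (an oleosin of oil bodies) had 0.147 in pifq WLc and 0.227 in pifq D, against 0.00718 in wt WLc and 0.974 in wt D. ACS8, an ethylene precursor synthase, had 0.295 and 0.261 in pifq WLc and pifq D, against 0.0600 and 0.737 in wt WLc and wt D. FLP1, a flowering-promoting factor-like gene, was lower in the light in both genotypes (log2 -1.02 in pifq and -3.68 in wt). As plain differences of signal, the levels of these genes in pifq D and wt D were farther apart than those in pifq WLc and wt WLc. On the log2 scale of the folds ACS8 went the other way.

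Other genes had a light change in pifq of similar or larger size than in wt. VTE1 had a log2 change of 1.27 in pifq and 1.29 in wt, FLS1 1.73 and 1.56, BBX30 1.97 and 1.68, LHY 1.18 and 0.78, and GA2OX6 -0.71 and -0.70. ELIP1 had 1.51 in pifq and 0.02 in wt, where its signal was 0.159 in WLc, 0.157 in D and 0.749 after 1 h of red light. CCR2 had 1.22 in pifq and -0.01 in wt, and HDA7 0.79 and -0.28. Of the 548 genes higher in pifq, 55 were at least 1.5-fold lower in wt, beside 6.1% of all genes. Of the 175 genes lower in pifq, 3 were at least 1.5-fold higher in wt, beside 7.36% of all genes. EXT3 was one of the 55, with 0.770 in pifq WLc and 0.168 in pifq D, against 0.412 in wt WLc and 0.683 in wt D.

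**Figure D4:**
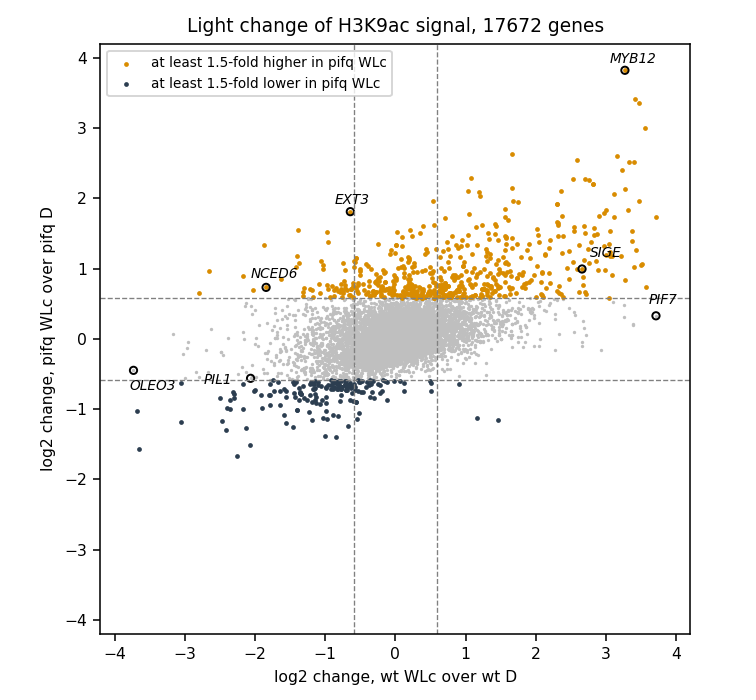
Log2 change of H3K9ac in WLc over D in pifq (vertical axis) and in wt (horizontal axis), with 1 point per gene and dashed lines at 1.5-fold. The cloud is wider along the wt axis, PIF7 lies at 0.33 in pifq and 3.71 in wt, and EXT3 lies at 1.81 in pifq and -0.64 in wt. The wt D value of PIF7 is at the floor of its column.

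The differing peaks were short and of low signal more often than other peaks. Genes higher in pifq WLc had a median peak length of 496 bp and genes lower one of 701 bp, beside 904 bp for all genes. Among 524 genes with a peak of up to 250 bp, 20.8% were at least 1.5-fold higher and 3.82% lower, whereas among 1558 genes with a peak over 2000 bp the shares were 1.16% and 0.642%. The wt comparison had 23.9% higher and 19.5% lower among the short peaks. By mean signal, the 3535 genes with the lowest values held 402 of the 548 higher and 164 of the 175 lower genes, and the 3535 with the highest values 3 and 0. That mean is taken over pifq WLc and pifq D, the same values that set the fold. A gene low in 1 of them is thereby drawn toward the low classes, so these counts follow in part by construction. The share was higher for short peaks also at high signal: with a mean signal at or above its median, 16 of 133 genes with a peak of up to 250 bp (12.0%) were higher, against 7 of 4106 (0.170%) with a peak over 500 and up to 1000 bp. A short or weak peak rests on fewer reads, the depth is unknown, and the part of counting error in these shares was not tested.

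**Figure D5:**
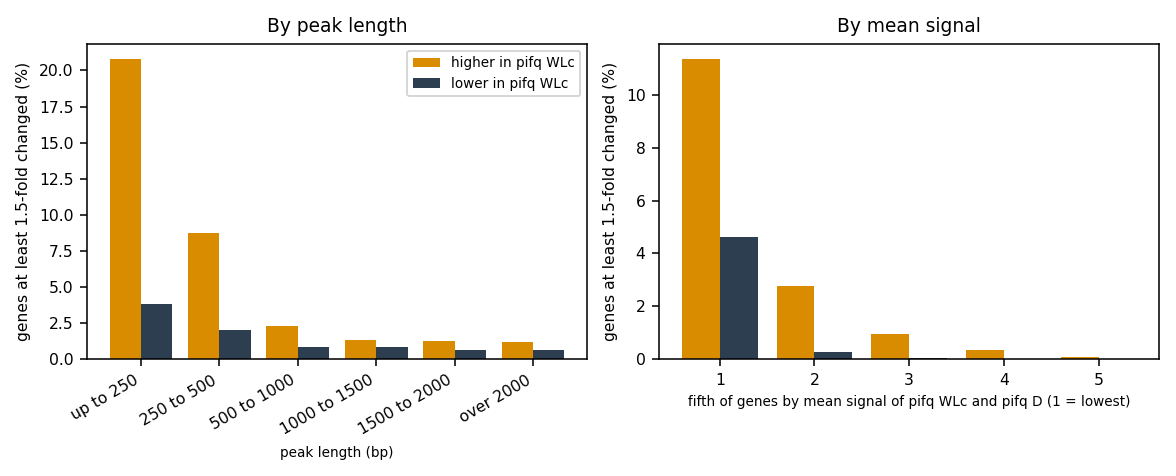
Share of genes at least 1.5-fold higher and at least 1.5-fold lower in pifq WLc than in pifq D, in percent, by class of peak length and of mean signal. The mean is taken over pifq WLc and pifq D, the values that also set the fold. Peaks of up to 250 bp have the largest share of higher genes (20.8%), and the share is 1.16% among peaks over 2000 bp.

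The shares also varied with position. Where the peak centre lay up to 250 bp upstream of the TSS, 0.445% of genes were higher and 0.445% lower, and where it lay within 250 bp downstream 3.6% and 0.8%. Farther downstream the share of higher genes lay between 2.86% and 4.31%, and that of lower genes between 0.705% and 1.92%. By chromosome the share of higher genes lay between 2.77% and 3.53%, and chromosome 5 had the largest share of lower genes, 1.42%. Among 1616 genes with several peaks, 200 had a higher peak but only 14 had all peaks higher, 86 had a lower peak and 11 all peaks lower, and 2 had both.

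Changed intervals were often neighbours. Of the 700 distinct intervals at least 1.5-fold higher, 136 (19.4%) had an adjacent interval that was higher too, beside 7.76% of all intervals, and of the 241 lower intervals 46 (19.1%) had a lower neighbour, beside 2.72% of all. Peaks of the same gene count as neighbours here. The longest run, of 6 higher intervals, lies on chromosome 5 around RPS6, a TIR-NBS-LRR resistance gene, and was picked after its values were seen. In it AT5G46440 had 0.695 in pifq WLc and 0.378 in pifq D, AT5G46450 0.774 and 0.386, AT5G46460 0.686 and 0.243, the RPS6 intervals 0.795 and 0.458 as well as 0.755 and 0.333, and AT5G46490 0.858 and 0.407. Signals in pifq R1h were 0.456 to 0.654, at each interval between those of the other groups, which were far apart by choice. Resistance genes of such clusters are alike in sequence, and how reads were split among them is not given in the sources used here.

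The promoters of the changed genes were searched for motifs. Of the 250-base windows upstream of the TSS, 10.3% of 545 higher genes and 8.05% of 174 lower genes held a G-box (CACGTG, its own reverse complement), beside 7.31% of all 17580 genes with a peak and an annotation. The share of lower genes was thus near that of all genes, and it fell below it with a larger pseudocount (5.00%) and at a 2-fold limit (3.45%). A PBE-box (CATGTG, either strand) was found in 14.7% of higher, 12.6% of lower and 10.9% of all windows. The evening element of clock-regulated genes (AAAATATCT, either strand) was found in 4.59% of higher, 2.30% of lower and 2.42% of all windows, and an I-box (GATAAG, either strand), known from light-regulated genes, in 11.9%, 14.9% and 12.5%. TATAAA was found in 49.7% of higher, 55.2% of lower and 45.9% of all windows. A window can hold both a G-box and a PBE-box, as that of IAA19 does, and is then counted for each. These shares are descriptions of letters in windows.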

How the data were processed

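H3K9ac was profiled by ChIP-seq in whole seedlings, with 3 libraries per group. Bowtie2 was used by the authors for alignment, BayesPeak for peak calling and DiffBind for quantification, as their methods and submission notes state, and each peak was given to the closest TSS, with versions not given in the sources used here and the genome named as TAIR9 or TAIR10. The deposited table holds a signal value per peak and group, 6 columns in all, made by the authors from the replicates in a way that is not stated. Multiplied by peak length, the values of each column have a common floor (21 peaks in pifq WLc and 23 in pifq D) and nearly equal totals, which shows a common scaling of the groups. The depth of the libraries is unknown, and the input libraries were not used here.

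From these values log2((WLc + p)/(D + p)) was computed with a pseudocount p of 0.0717, which is 0.1 of the median of all values. A gene with several peaks was represented by the peak of highest mean over pifq WLc and pifq D, and was counted as higher or lower at 1.5-fold. A test had been planned for values per library only, so none was run. The members and lists were chosen with earlier results of these data known. The 36 gene lists and the study's target lists (gene IDs only) were matched by symbol or locus. Of 714 symbols 689 were resolved, to 679 genes of which 567 had a peak, and 18 symbols had no unique locus. A further 28 groups were formed by words in RefSeq product names. Named genes are (a) those the study names and the PIF loci, (b) the 10 largest changes in each direction among genes beyond the 1.5-fold limit with the median signal or more in pifq WLc or pifq D, (c) up to 6 members per list with the largest absolute change and (d) the 5 most extreme genes of a peak class or of the comparison with wt. ABCG8, DIR1, PHYA, PHYB and other genes named outside this rule, as further examples of a list or group, were chosen after their values were seen.

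Of 17672 genes, 17580 were found in the RefSeq TAIR10.1 annotation and 92 were not. Coordinates are those of the table, which does not say if its starts are 0-based or 1-based, so a printed sequence may begin 1 base early. Alternatives were other pseudocounts, scalings, filters, peak choices and a 2-fold limit, and, added after the data were seen, peaks over 250 or over 500 bp only, no pseudocount and no shared intervals. Python 3.11.15, numpy 2.4.6, pandas 2.3.3, biopython 1.88 and matplotlib 3.10.9 were used.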

Additional observations from a re-analysis of the deposited data

Results flagged for a closer look

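Genes at least 1.5-fold higher in the light in pifq and at least 1.5-fold lower in wt are given here, the 5 with the largest difference among those that reach the median of all values in pifq or wt, each with the log2 change in pifq minus that in wt. None of these differences was tested, because each group has 1 pooled value. In all, 55 of the 548 genes higher in pifq were lower in wt, beside 6.1% of all genes. Opposite changes of similar size in the other direction were seen at genes of lower signal: AT5G60130 had log2 changes of -1.16 in pifq and 1.46 in wt, and the SAUR gene AT3G53250 -1.13 in pifq and 1.16 in wt.

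NCED6, which encodes an enzyme of abscisic acid synthesis, differed by 2.57. It had 0.567 in pifq WLc and 0.312 in pifq D, against 0.226 in wt WLc and 0.996 in wt D. EXT3, whose interval holds a repeated stretch, differed by 2.45, with log2 changes of 1.81 in pifq and -0.64 in wt. UPB1, a bHLH regulator of root growth, differed by 2.44, with 0.353 in pifq WLc and 0.137 in pifq D, against 0.266 in wt WLc and 0.828 in wt D. AT2G25770, of a polyketide cyclase family, differed by 2.03, with log2 changes of 0.73 in pifq and -1.30 in wt. VIM4, a RING finger gene, differed by 1.88, with 0.556 in pifq WLc and 0.293 in pifq D, against 0.343 in wt WLc and 0.813 in wt D. All of these peaks but that of AT2G25770 (601 bp) are shorter than 200 bp, between 105 and 195 bp.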

How the results depend on the processing

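The main counts, 548 genes higher and 175 lower in pifq WLc, kept within 1.5 times their size under equal medians, TMM factors, scaling to reference genes, leaving out peaks at the floor, the peak nearest the TSS, any peak of a gene and peaks over 250 bp only. The lower genes numbered 284 with a pseudocount of 0.01 of the median, 296 with none and 266 under quantile normalization. With a pseudocount of 0.5 of the median 199 genes were higher and 20 lower, and with a pseudocount of 1 there were 17 and 0. Without the 25% of peaks with the lowest mean signal there were 135 and 10, at a 2-fold limit 188 and 29, and with peaks over 500 bp only 283 were higher. A larger pseudocount or limit leaves fewer low peaks past it by construction.

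The share of genes with a peak up to 250 bp that were higher (20.8%) was 8.78% with a pseudocount of 0.5 of the median, 1.53% with 1 and 7.63% at the 2-fold limit. The share of lower genes with a G-box (8.05%) was 5.00% with a pseudocount of 0.5 of the median and 3.45% at the 2-fold limit. Of the list medians, 556 values under these alternatives stayed on the same side of the 1.5-fold limit as the main value. The other 4 crossed it, all for flavonoid synthesis (0.49 and 0.30 with the pseudocounts of 0.5 of the median and 1, 0.41 without the 25% of lowest peaks, 0.54 with peaks over 500 bp). For the named genes 702 values stayed on the same side and 59 crossed it, and 0 values past the limit changed sign. How far a value moved without crossing the limit was not counted. The overlaps with wt moved by less than 1.5 times in every alternative with at least 20 changed genes.

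No paired analysis was possible because the deposited values are pooled per group, and for the same reason no replicate was left out.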

Other observations

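Gene families outside the lists above, grouped by their RefSeq product names, were counted in the same way, and their shares can be read against the 3.1% of all genes that were higher and the 0.99% that were lower. The cytochrome P450 family, enzymes of specialised metabolism, had 13 of 111 genes at least 1.5-fold higher and 4 lower. CYP71A22 had 0.278 in pifq WLc and 0.0493 in pifq D (log2 1.53), its close copy CYP71A21 0.364 and 0.0858 (1.47), and CYP94B2, of jasmonate turnover, 0.917 and 0.317 (1.35). CYP708A2, of the same root triterpene pathway as CYP705A5, had 0.179 in pifq WLc and 0.588 in pifq D (log2 -1.39), with 0.541 in pifq R1h. Lipid transfer proteins had 6 of 26 genes higher and 0 lower, among them DIR1, of systemic resistance, with 0.598 in pifq WLc, 0.315 in pifq R1h and 0.0740 in pifq D (log2 2.2). Pectin enzymes and inhibitors had 5 of 44 higher, late embryogenesis abundant proteins 5 of 36, ABC transporters 5 of 28 (ABCG8 at log2 1.18) and disease resistance proteins 5 of 32 (RLM3 at 1.03), each with 0 lower. Among the 28 groups counted were also families under the share of all genes, with 3 of 161 receptor-like kinases, 4 of 158 F-box genes and 3 of 206 pentatricopeptide repeat genes higher. Among small heat shock proteins, HSP18.2 had 0.921 in pifq WLc and 0.304 in pifq D (log2 1.4).

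Auxin-responsive SAUR genes had 1 of 53 higher and 7 lower, with AT4G13790 at 0.0208 in pifq WLc and 0.156 in pifq D (log2 -1.30). The bHLH factors had 3 of 78 higher (3.85%) and 5 lower (6.41%). The bZIP factors had 0 of 43 higher and 1 lower (2.33%), ABI5 of abscisic acid signalling (0.351 in pifq WLc and 0.623 in pifq D, log2 -0.72). MYB10 had 0.0848 in pifq WLc and 0.285 in pifq D (log2 -1.19). Large housekeeping families, grouped by product name alone, hardly moved. Of 86 genes grouped as cytosolic ribosomal proteins, 0 were higher and 1 was lower (GCD1, which was within the limit at its peak nearest the TSS). Of 32 proteasome, 8 histone and 13 tubulin genes, 0 passed the limit. A run of 3 adjacent lower intervals was assigned to AT5G40630, with 0.0616, 0.0603 and 0.146 in pifq WLc and 0.301, 0.267 and 0.272 in pifq D.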
